A study of Homo sapiens with 4 samples.

Results

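Metallothioneins and zinc response genes were followed in SKBR3 cells that overexpress VIRMA. The group comprised 8 genes of the 56271 rows in the count table, picked by their symbols, with earlier results of these data known. They were the metallothioneins MT1E, MT1F, MT1G, MT1M, MT1X and MT2A, the zinc sensor MTF1 and the zinc exporter SLC30A1. SKBR3 is an established HER2-positive breast cancer line, and VIRMA is a subunit of the complex that places N6-methyladenosine (m6A) on RNA. Poly-A RNA was sequenced from 2 libraries of an eGFP control and 2 libraries of VIRMA-overexpressing cells. The VIRMA-overexpressing cells carried a FUW lentivirus with HA-tagged full-length VIRMA and eGFP behind the ubiquitin C promoter, the control cells carried eGFP, and both were sorted for eGFP as populations, so neither group is a clone. Values are given below as with eGFP or with VIRMA for the 2 groups, in the order of their replicates. The culture text given for all 4 libraries is that of a hypoxia experiment that ended in protein extraction, while the study's methods give hypoxia as a separate treatment and its text treats the transcript results as those of unstressed culture; the oxygen these cultures received is thus not certain, and no label sets the groups apart in it.

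Metallothioneins are small cysteine-rich proteins that bind zinc and copper ions in thiolate clusters, buffer free zinc and take up toxic metals such as cadmium. Their genes lie side by side on human chromosome 16 and are switched on by MTF1, a zinc finger transcription factor that senses free zinc and binds metal response elements in their promoters. MTF1 also switches on SLC30A1 (ZnT1), which moves zinc out of the cell across the plasma membrane, and metallothionein genes respond to glucocorticoids and oxidants as well.

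The coding sequences below are shown because the metallothioneins are close copies of one another, which bears on how reads can be assigned to each gene. They were read from the GENCODE 44 canonical transcripts, and capitals mark each base that differs from MT2A at the same position.

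MT2A: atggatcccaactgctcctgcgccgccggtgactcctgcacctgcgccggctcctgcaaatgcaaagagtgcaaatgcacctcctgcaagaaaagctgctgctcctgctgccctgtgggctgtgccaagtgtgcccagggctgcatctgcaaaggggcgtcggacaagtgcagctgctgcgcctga
MT1X: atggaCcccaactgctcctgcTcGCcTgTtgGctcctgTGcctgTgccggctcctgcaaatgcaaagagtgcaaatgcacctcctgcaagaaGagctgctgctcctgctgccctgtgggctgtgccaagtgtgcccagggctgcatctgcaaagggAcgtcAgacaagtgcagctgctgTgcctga
MT1F: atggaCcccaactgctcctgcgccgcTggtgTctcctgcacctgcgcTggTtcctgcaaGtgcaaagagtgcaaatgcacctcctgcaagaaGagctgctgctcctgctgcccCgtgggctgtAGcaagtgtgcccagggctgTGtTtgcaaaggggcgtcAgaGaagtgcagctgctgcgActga
MT1M: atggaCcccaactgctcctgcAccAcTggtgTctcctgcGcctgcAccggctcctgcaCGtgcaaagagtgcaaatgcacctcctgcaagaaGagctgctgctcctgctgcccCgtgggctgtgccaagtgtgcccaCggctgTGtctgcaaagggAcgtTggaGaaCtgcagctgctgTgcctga

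Each of these 4 coding sequences is 186 bases long, stop codon included, and comes from a transcript of 3 exons. MT1X differed from MT2A at 14 bases (92.5% identity), MT1F at 16 (91.4%) and MT1M at 19 (89.8%). MT1G is 189 bases long and MT1E 384 in their canonical transcripts, so neither was aligned base for base. The longest run shared base for base with MT2A at the same position was 63 bases in MT1X and 32 in MT1F and MT1M. No stretch of 100 bases of the canonical transcript of MT1E, MT1F, MT1G, MT1M or MT2A occurred in a transcript of another gene, and the reads were 150 bases long. In MT1X 22.0% of the 100-base stretches and 6.67% of the 150-base stretches did, all of the latter in an overlapping long non-coding RNA. At 50 bases the shared part was 51.0% in MT1X, 19.9% in MT1G, 14.6% in MT1M, 11.1% in MT2A, 10.3% in MT1E and 6.12% in MT1F. The sources used here do not say what was done with reads that align to several places, so the split of reads between these genes is uncertain to that extent.

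The promoters of MT2A, MT1X and SLC30A1 are shown because they carry matches to the core of the metal response element, the site MTF1 binds. The core was searched as TGCACNC and TGCGCNC on both strands, in the 250 bases before the transcription start of the RefSeq table (build GRCh38.p14), and capitals mark the matches, none of which overlapped another. The windows are chr16:56608334-56608583 (plus strand) for MT2A, chr16:56682220-56682469 (plus strand) for MT1X and chr1:211579162-211579411 (minus strand) for SLC30A1.

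MT2A: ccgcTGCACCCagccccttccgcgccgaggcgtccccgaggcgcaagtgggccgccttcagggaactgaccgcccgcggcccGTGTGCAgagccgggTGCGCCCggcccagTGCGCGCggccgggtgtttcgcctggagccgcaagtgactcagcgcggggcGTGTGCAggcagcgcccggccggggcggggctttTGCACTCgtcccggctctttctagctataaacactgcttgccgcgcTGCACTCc
MT1X: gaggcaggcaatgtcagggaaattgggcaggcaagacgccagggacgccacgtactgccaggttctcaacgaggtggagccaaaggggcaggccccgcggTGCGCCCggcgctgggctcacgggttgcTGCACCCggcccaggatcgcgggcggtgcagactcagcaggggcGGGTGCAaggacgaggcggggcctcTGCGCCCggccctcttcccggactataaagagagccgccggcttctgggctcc
SLC30A1: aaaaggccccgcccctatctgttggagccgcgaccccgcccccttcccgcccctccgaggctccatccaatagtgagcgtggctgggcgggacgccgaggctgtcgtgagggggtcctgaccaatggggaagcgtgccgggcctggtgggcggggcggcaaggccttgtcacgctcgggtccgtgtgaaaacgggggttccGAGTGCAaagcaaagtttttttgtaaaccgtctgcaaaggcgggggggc

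MT2A held 7 core matches, 5 on the strand of the gene and 2 on the other, between 8 and 246 bases before the start. MT1X held 4 matches, SLC30A1 held 1, 49 bases before its start, and the window of MTF1 (chr1:37859593-37859842, minus strand) held none. Of the 35116 promoters of the table, 24.8% held at least 1 match, 0.37% at least 4 and 0.12% at least 5. A match is a run of letters and not a measured site, and the table had an entry for 4 of the 8 genes. The deposited MT2A gene model starts at position 56608199, ahead of its window, so the model counts the window as exon. The deposited MT1X model starts at 56682424 and the MTF1 model reaches 37859620, each inside its own window. The SLC30A1 model reaches only 211578742, short of its window.

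The libraries held between 81446932 and 86375474 counts. Mitochondrial genes took 11.4% and 11.6% of them with eGFP and 12.8% in both libraries with VIRMA. VIRMA itself, listed under its older symbol KIAA1429, had 710 and 682 counts with eGFP and 3437 and 3460 with VIRMA, or 4.89-fold more (log2 fold change 2.29, SE 0.0685, edgeR adjusted p = 9.74e-26), with no separation of lentiviral from endogenous transcripts. The luminal HER2 markers had a summed level of 26435 and 25996 counts scaled by library size (CPM) with eGFP and 23519 and 23694 CPM with VIRMA, and 2 of their 7 tested genes rose and 3 fell at an adjusted p below 0.05. KRT8 fell most, from 8286.5 to 5817.4 CPM on average, and KRT19 and EPCAM also fell. GRB7 and KRT18 rose. FOXA1 did not pass, nor did ERBB2, at 7015.5 CPM with eGFP and 7010.1 with VIRMA on average. The hormone receptors, low in this line, had 0 counts (PGR) and 24 to 48 counts (ESR1). Of 7 erythroid markers the summed level was 20.3 to 28.0 CPM in the control libraries and 0.323 to 0.479 CPM in the VIRMA-overexpressing libraries. Most of it was HBB, which had 2137 and 1543 counts with eGFP and 0 and 0 with VIRMA, while AHSP had 1 and 1 and SLC4A1 had 18 and 8 with eGFP and 0 with VIRMA. Of 6 fibroblast markers the summed level was 13.4 to 13.8 CPM against 8.43 to 9.01 CPM, nearly all of it COL1A1, and of 6 leukocyte markers it was 2.10 to 3.34 CPM against 1.67 to 1.78 CPM. The luminal, erythroid, fibroblast and leukocyte sums were all lower in both VIRMA-overexpressing libraries, as was the metallothionein sum below. Single markers within them, such as GRB7, KRT18 and CD3E, were higher, and the median log2 fold change of the 7 tested luminal genes was -0.03. The mitochondrial share was also higher with VIRMA, and the part of these differences in the results was not tested.

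**Figure D1:**
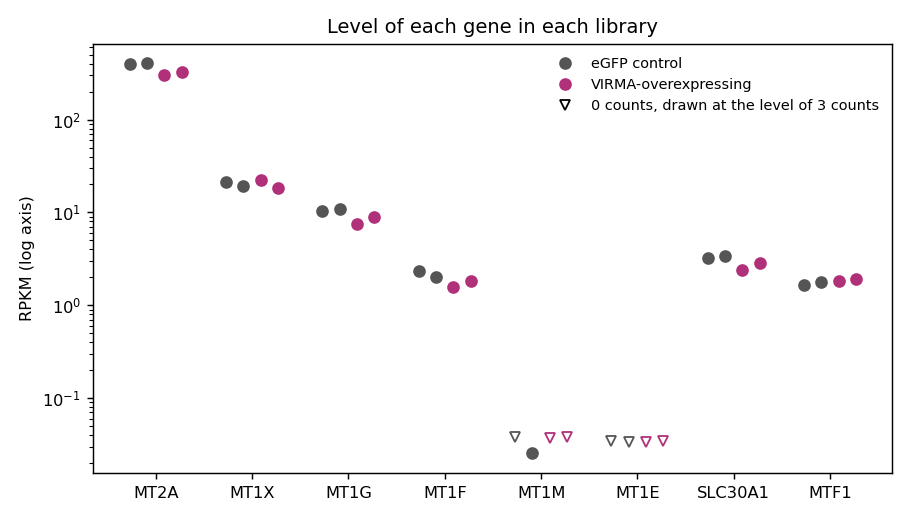
Level of the 8 genes in each of the 4 libraries, as reads scaled by library size and exonic length (RPKM) on a log axis. Grey points are eGFP control and purple points are VIRMA-overexpressing libraries. Open triangles stand for 0 counts, drawn at the level that 3 counts would have, and the single filled point of MT1M is a library with 2 counts. MT2A lay above all others, between 299 and 402 RPKM, and MT1E and MT1M sat at the bottom in both groups.

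MT2A was by far the most abundant of the metallothioneins in SKBR3 cells, and MT1E was not detected. MT2A is the broadly expressed metallothionein of human tissues. It had 42397 and 43704 counts with eGFP and 33240 and 35351 with VIRMA. Its level was 397 ± 6.77 RPKM (SD, n = 2) with eGFP, rank 99 among the 12205 genes tested, and 312 ± 18.9 RPKM (n = 2) with VIRMA, rank 109. The MT2A row spans chr16:56608199-56609497 on the plus strand of GRCh38.

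MT1X was the next in order. It had 3119 and 2850 counts with eGFP and 3393 and 2745 with VIRMA, at 20.2 ± 1.38 and 20.4 ± 2.71 RPKM (n = 2 each). Per exonic length, the MT2A level was 13.4 to 20.9 times the MT1X level within a library. MT1X lies at chr16:56682424-56684196 on the plus strand, and 321 of its 1773 exonic bases are shared on the same strand with RP11-343H19.2, which had 0 counts in all 4 libraries. How reads that fall in both rows were counted is not given in the sources used here. Reads of the shared bases may thus be missing from the MT1X level and from its ratio to MT2A.

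MT1G and MT1F were lower again. MT1G, at chr16:56666731-56668065 on the minus strand, had 642 and 677 counts with eGFP and 486 and 555 with VIRMA, or 10.5 ± 0.349 and 8.21 ± 0.908 RPKM (n = 2 each). MT1F, at chr16:56657694-56660698 on the plus strand, had 370 and 322 counts against 253 and 289, or 2.20 ± 0.225 and 1.70 ± 0.188 RPKM (n = 2 each). For both genes each control library lay above each VIRMA-overexpressing library.

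MT1M and MT1E were at or near 0. MT1M, at chr16:56632233-56633986, had 2 counts in a single control library and 0 in the other 3 libraries. MT1E, at chr16:56625475-56627112, had 0 counts in all 4 libraries, which allows up to 3 counts, or 0.0333 to 0.0343 RPKM; this limit covers counting error only. Against that limit MT2A was at least 8973-fold higher per exonic length in every library. No difference between the groups was detectable at this depth for either gene, and neither was tested.

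SLC30A1 and MTF1 were measured at RPKM levels close to those of MT1F, which holds only for the deposited exonic lengths (below). SLC30A1, at chr1:211571568-211578742 on the minus strand, had 1481 and 1545 counts with eGFP and 1123 and 1315 with VIRMA, or 3.31 ± 0.0844 and 2.63 ± 0.338 RPKM (n = 2 each). MTF1, at chr1:37809567-37859620 on the minus strand, had 1092 and 1195 counts against 1256 and 1283, or 1.71 ± 0.101 and 1.87 ± 0.0599 RPKM (n = 2 each). The groups did not overlap for either gene, with SLC30A1 lower and MTF1 higher in the VIRMA-overexpressing libraries.

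The order of RPKM levels was MT2A, MT1X, MT1G, SLC30A1, MT1F and MTF1. Each of the first 4 steps of this order held in every library: MT1X was 1.78 to 2.95 times MT1G, MT1G 3.08 to 3.20 times SLC30A1, and SLC30A1 1.38 to 1.66 times MT1F. By RPKM, MT1F and MTF1 were not separated, since MT1F was 0.856 to 1.44 times MTF1 and the order turned between libraries. The deposited exonic lengths add up all annotated exons, so they are far longer than a mature metallothionein transcript, with 1889 bases for MT1F against 425 in its canonical transcript. With canonical lengths MT1F stood above both SLC30A1 and MTF1. In the controls MT1F, SLC30A1 and MTF1 were at 9.76 ± 1.00, 3.08 ± 0.0784 and 1.73 ± 0.102 CPM per kilobase (n = 2). With VIRMA they were at 7.54 ± 0.836, 2.45 ± 0.314 and 1.89 ± 0.0606 (n = 2). MT2A reached 1287 ± 21.9 and MT1X 88.6 ± 6.03 in the controls.

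**Figure D2:**
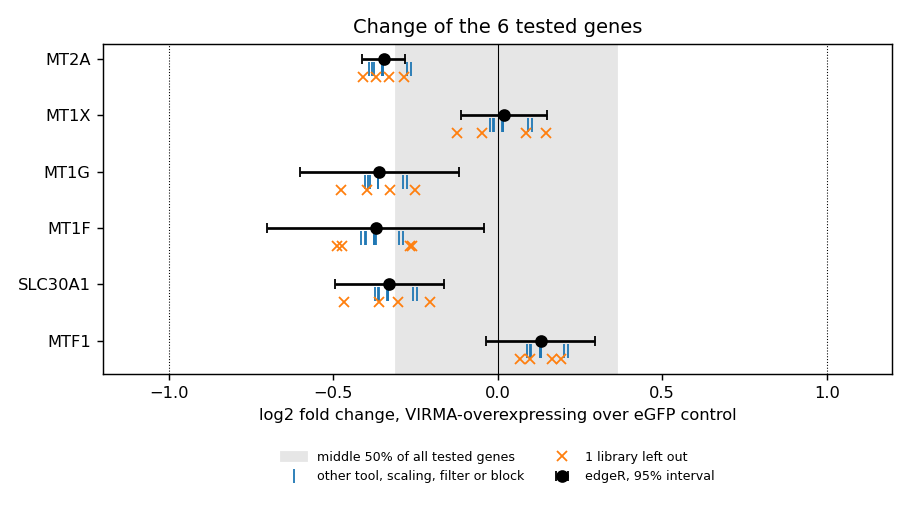
Log2 fold change of the 6 tested genes, VIRMA-overexpressing over eGFP control. Black points and bars are edgeR estimates with 95% intervals, blue ticks are other tools, scalings, filters or the replicate block, orange crosses leave out 1 library, the grey band is the middle 50% of the 12205 tested genes and dotted lines mark a log2 fold change of 1 in size. MT2A, MT1G, MT1F and SLC30A1 lie between -0.37 and -0.33, MT1X and MTF1 at or above 0, and none comes near the dotted lines.

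The comparison of VIRMA-overexpressing with control cells asked whether transcripts of the zinc response differed with VIRMA. MT2A, MT1G, MT1F and the zinc exporter SLC30A1 were each lower by about the same amount, from -20.5% to -22.7%, whereas MT1X and MTF1 did not pass the test. Of the 8 genes, 6 reached RPKM above 1 in at least 2 libraries and were tested with edgeR's quasi-likelihood test. None passed the thresholds of the study, an adjusted p below 0.05 with a log2 fold change above 1 or below -1, by edgeR, DESeq2 or limma-voom, nor at an unadjusted p below 0.05 with the same fold. Of all tested genes 7.46% passed them (4.52% higher and 2.93% lower). At an adjusted p below 0.05 alone, 4 of the 6 were lower and 0 higher by edgeR, as they were at an unadjusted p below 0.05, while limma-voom gave 4 lower and DESeq2 gave 3. That rule called 71% of all tested genes (35.1% higher and 35.9% lower), so these data make such a call for most genes. The groups did not overlap for 5 of the 6, against 84.3% of all tested genes, and 4 of them were lower in both VIRMA-overexpressing libraries, against 41.6%. In what follows, rose and fell refer to the adjusted p alone unless both thresholds are named.

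MT2A fell by 0.35 on the log2 scale (SE 0.0323, 95% interval -0.413 to -0.282, edgeR adjusted p = 8.35e-12). Its levels were 509.8 and 522 CPM with eGFP and 388 and 423 CPM with VIRMA. This was the most precise change of the group, and it passed with each library left out in turn, between -0.41 and -0.29. In bulk RNA, fewer cells that express a gene and less RNA per cell cannot be told apart.

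MT1G fell by 0.36 on the log2 scale (SE 0.119, 95% interval -0.601 to -0.120, edgeR adjusted p = 0.00735), from 7.90 ± 0.262 to 6.16 ± 0.681 CPM (n = 2 each). The call rested on 1 library, since without VIRMA-overexpressing replicate 1 the change was -0.25 with an edgeR adjusted p of 0.128. MT1F fell by 0.37 (SE 0.163, 95% interval -0.703 to -0.0409, edgeR adjusted p = 0.0412), from 4.15 ± 0.425 to 3.21 ± 0.355 CPM (n = 2 each). It was the least firm of the 4: the adjusted p was 0.0746 with DESeq2, 0.111 with library totals in place of TMM in edgeR, 0.224 without control replicate 1 and 0.276 without VIRMA-overexpressing replicate 1.

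MT1X, at 37.5 and 34.1 CPM with eGFP and 39.6 and 32.8 CPM with VIRMA, stood at 0.02 on the log2 scale (SE 0.0639, 95% interval -0.111 to 0.148, edgeR adjusted p = 0.807). Its groups overlapped, and the spread within each group was wider than the difference between them. Its interval lay wholly above that of MT2A, though the difference between the 2 genes was not tested. The ratio of MT2A to MT1X counts within a library, which no scaling between libraries touches, was 13.6 and 15.3 with eGFP and 9.80 and 12.9 with VIRMA. The ratio was lower in both VIRMA-overexpressing libraries, but with 2 against 2 libraries an exact permutation test cannot give a p below 0.333.

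SLC30A1 fell by 0.33 on the log2 scale (SE 0.0816, 95% interval -0.496 to -0.165, edgeR adjusted p = 0.000534), from 18.1 ± 0.462 to 14.4 ± 1.85 CPM (n = 2 each). It kept an adjusted p below 0.05 with each library left out, but its size rested in part on 1 library: without VIRMA-overexpressing replicate 1 the change was -0.21 with an edgeR adjusted p of 0.0476. MTF1 stood at 0.13 on the log2 scale (SE 0.0816, 95% interval -0.0348 to 0.297, edgeR adjusted p = 0.150), from 13.7 ± 0.812 to 15.0 ± 0.481 CPM (n = 2 each). With library totals the MTF1 change was 0.21 and its edgeR adjusted p 0.0200, and with upper-quartile scaling 0.20 and 0.0275.

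The sizes of these changes were ordinary for this comparison. Across all 12205 tested genes the median log2 fold change was 0.01, the quartiles were -0.31 and 0.36, and the median size was 0.34. The 6 genes had a median of -0.34, and the 4 that fell lay just outside the lower quartile.

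The 6 metallothioneins summed made up 0.0545% and 0.0551% of all counts with eGFP and 0.0451% and 0.0478% with VIRMA. A sum is less affected than single genes by how reads are split between close copies, but it too lacks any reads left uncounted. As CPM the sum was 564 ± 6.21 with eGFP and 451 ± 20.8 with VIRMA (n = 2 each), a log2 ratio of -0.32. MT2A supplied 91.1% and 91.9% of it with eGFP and 88.9% and 90.8% with VIRMA, so the sum followed MT2A. Without MT2A the sum was 49.7 and 46.0 CPM against 48.3 and 42.9 CPM, where the groups overlapped. MT1X supplied 6.70% and 5.99% of metallothionein counts with eGFP and 9.08% and 7.05% with VIRMA, and MT1G at most 1.43% in any library.

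Other metallothionein genes and pseudogenes added almost nothing. Of 14 such rows, 6 had 0 counts in every library, including the brain-enriched MT3 and the epithelial MT4, and 2 were tested. MT1A had 44 and 64 counts with eGFP and 38 and 35 with VIRMA (log2 fold change -0.58, SE 0.406, edgeR adjusted p = 0.198). MT1XP1, a pseudogene copy of MT1X, had 24 and 4 counts with eGFP and again 24 and 4 with VIRMA.

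**Figure D3:**
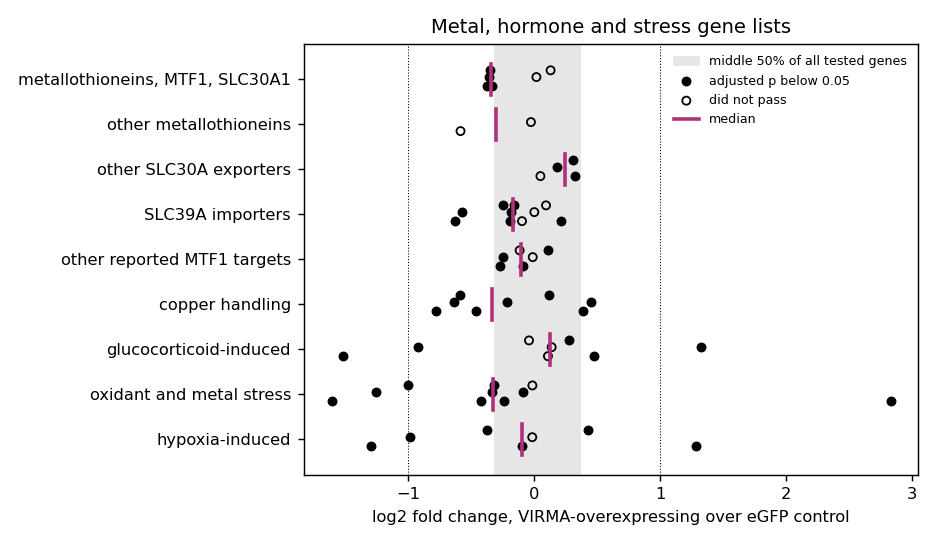
Log2 fold change of each tested gene in 9 lists, VIRMA-overexpressing over eGFP control, 1 point per gene. Filled points have an edgeR adjusted p below 0.05, purple bars are list medians, the grey band is the middle 50% of the 12205 tested genes and dotted lines mark a log2 fold change of 1 in size. The medians of the zinc response genes, copper handling and oxidant stress lie just below the band and the others within it, while single genes such as SLC7A11 at 2.83 and HSPA1A at -1.61 lie far outside it.

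Across 8 lists of other genes of metal, hormone and stress responses, 53 genes were tested, of which 14 rose and 26 fell. Of all tested genes 35.1% rose and 35.9% fell by the same rule, and these shares stand beside each list below. Most of the other SLC30A proteins load zinc into the Golgi and vesicles or move it between compartments. Of the 10 genes listed (TMEM163 included) 4 were tested, 3 rose and 0 fell, with a median log2 fold change of 0.25. SLC30A7 had 1674 and 1738 counts with eGFP and 2177 and 2148 with VIRMA (0.32, SE 0.0646, edgeR adjusted p = 4.00e-05). SLC30A5, which works in the Golgi with SLC30A6, had 2179 and 2160 against 2753 and 2707 (0.31, SE 0.0585, adjusted p = 1.53e-05). SLC30A9 stood at 0.18 (SE 0.0665, adjusted p = 0.0138). SLC30A1, the exporter at the plasma membrane that fell, is one of the 8 genes above and was not counted in this list.

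The SLC39A proteins bring zinc into the cytoplasm. Of 14 genes 10 were tested, 1 rose and 6 fell, with a median of -0.17. SLC39A3 had 2234 and 2457 counts with eGFP and 1465 and 1606 with VIRMA (-0.63, SE 0.0693, edgeR adjusted p = 4.70e-10). SLC39A4, the intestinal zinc uptake gene mutated in acrodermatitis enteropathica, had 4009 and 4292 against 2764 and 2900 (-0.57, SE 0.0515, adjusted p = 3.93e-12). SLC39A10, reported to be repressed by MTF1, had 2160 and 2161 against 1865 and 1834 (-0.24, SE 0.0634, adjusted p = 0.000905). The gene that rose, SLC39A7, releases zinc from the endoplasmic reticulum and was at 0.21 (SE 0.0307, adjusted p = 1.82e-07). None of the transporters passed both thresholds.

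Of 8 rows of other genes reported as MTF1 targets 6 were tested, 1 rose and 3 fell, with a median of -0.10 and a range of -0.27 to 0.11. SEPW1, which encodes the selenoprotein W, had 14896 and 14848 counts with eGFP and 12644 and 12314 with VIRMA (-0.27, SE 0.0324, edgeR adjusted p = 2.62e-09). CSRP1, a LIM domain protein, was at 0.11 (SE 0.0283, adjusted p = 0.00114), and SLC39A10 is also in this list. PGF, placental growth factor, did not reach the RPKM filter and was not tested, at 285 and 236 counts with eGFP and 56 and 92 with VIRMA, or 3.12 ± 0.429 and 0.877 ± 0.316 CPM (n = 2 each). Its groups did not overlap, which held for 84.3% of all tested genes, a set that PGF is not part of. The other untested row, SLC30A2, had 40 and 24 counts with eGFP and 35 and 45 with VIRMA, where the groups overlapped.

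Copper is the other metal that metallothioneins hold in cells. Of 12 copper handling genes 8 were tested, 3 rose and 5 fell, with a median of -0.34. The chaperone COX17, which carries copper to cytochrome c oxidase, had 3476 and 3778 counts with eGFP and 2031 and 2261 with VIRMA (-0.78, SE 0.0601, edgeR adjusted p = 7.26e-14). ATOX1, which hands copper to the Golgi pumps, was at -0.64 (SE 0.0389, adjusted p = 9.67e-17) and SOD1, the copper and zinc superoxide dismutase, at -0.59 (SE 0.0322, adjusted p = 4.59e-18). CCS, which loads copper into SOD1, rose by 0.45 (SE 0.0558, adjusted p = 5.78e-09), as did the copper importer SLC31A1 by 0.39 (SE 0.0435, adjusted p = 6.86e-10).

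Metallothioneins are also classical targets of glucocorticoids. Of 10 genes listed as glucocorticoid-induced 8 were tested, 3 rose and 2 fell, with a median of 0.12, and they parted in direction. The list also holds NR3C1, the gene of the receptor itself, which was tested and did not pass (0.14, edgeR adjusted p = 0.132). FKBP5, a co-chaperone of the glucocorticoid receptor, had 1288 and 1164 counts with eGFP and 477 and 395 with VIRMA (-1.51, SE 0.105, edgeR adjusted p = 4.20e-15), past both thresholds. ERRFI1, an inhibitor of ERBB receptors, had 3952 and 4212 against 10421 and 10305 (1.32, SE 0.0398, adjusted p = 1.09e-25), also past both. The phosphatase gene DUSP1 was at -0.92 (SE 0.0362, adjusted p = 3.46e-22), TSC22D3 (GILZ) at 0.48 (SE 0.0384, adjusted p = 2.04e-13) and KLF9 at 0.28 (SE 0.0742, adjusted p = 0.00110).

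Genes of the response to oxidants and heavy metals, SLC30A1 among them, fell more often than they rose. Of 11 genes 10 were tested, 1 rose and 8 fell, with a median of -0.32, against 35.1% higher and 35.9% lower over all tested genes. The 8 include SLC30A1, already counted among the zinc response genes, and both HSPA1A and HSPA1B. The heat shock gene HSPA1A had 6952 and 7464 counts with eGFP and 2463 and 2340 with VIRMA (-1.61, SE 0.0461, edgeR adjusted p = 2.74e-26) and HSPA1B had 4870 and 5068 against 2097 and 2134 (-1.25, SE 0.0502, adjusted p = 5.62e-22). These are near-identical copies, so the share of each is uncertain. HMOX1, the haem oxygenase induced by cadmium, had 1848 and 2028 against 949 and 1017 (-0.999, SE 0.0770, adjusted p = 6.55e-14), just short of the fold threshold. SRXN1, which restores oxidised peroxiredoxins, was at -0.42 (SE 0.129, adjusted p = 0.00437). The gene that rose was SLC7A11, the cystine importer, with 361 and 296 counts against 2408 and 2323 (2.83, SE 0.0910, adjusted p = 7.86e-25).

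Hypoxia-induced genes were read because the culture text describes low oxygen. Of 10 genes 7 were tested, 2 rose and 4 fell, with a median of -0.10. CA9, a gene strongly induced by low oxygen, had 15 and 22 counts with eGFP and 9 and 5 with VIRMA and was not tested. Also untested were PDK1, with 768 and 632 counts against 1043 and 927, and ANKRD37, with 112 and 143 against 87 and 134. VEGFA, an angiogenic growth factor, had 13771 and 13768 against 34561 and 33373 (1.28, SE 0.0307, edgeR adjusted p = 1.05e-28), past both thresholds. ADM, which encodes adrenomedullin, had 1926 and 1899 against 816 and 765 (-1.29, SE 0.0778, adjusted p = 6.81e-17), also past both. The oxygen sensor EGLN3 was at -0.99 (SE 0.0995, adjusted p = 6.20e-11), KDM3A at 0.42 (SE 0.0576, adjusted p = 4.64e-08) and the glucose carrier SLC2A1 at -0.37 (SE 0.0312, adjusted p = 7.01e-13). The members of this list thus moved in both directions between the groups.

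**Figure D4:**
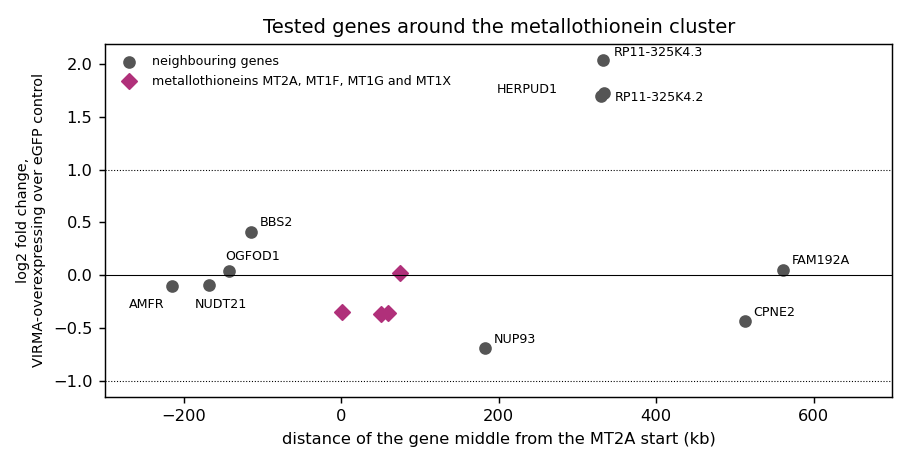
Log2 fold change, VIRMA-overexpressing over eGFP control, of the 10 tested genes within 500 kb of the metallothionein cluster on chromosome 16 (grey circles) and of the 4 tested metallothioneins (purple diamonds), against the distance of the gene's middle from the MT2A start in kilobases. Dotted lines mark a log2 fold change of 1 in size. HERPUD1 and the 2 rows within it lie at 1.69 to 2.04, about 330 kb away, and all others lie between -0.69 and 0.41.

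The genes around the cluster went in both directions. Of the 10 tested genes with exons within 500 kb of the cluster, 4 rose and 4 fell, with a median log2 fold change of 0.04. Over all tested genes 35.1% rose and 35.9% fell, and 4.52% were higher past both thresholds. HERPUD1, which encodes a membrane protein of endoplasmic reticulum degradation, had 17108 and 16963 counts with eGFP and 56827 and 55018 with VIRMA (1.69, edgeR adjusted p = 8.49e-33), past both thresholds. RP11-325K4.3 (2.04, adjusted p = 6.76e-19) and RP11-325K4.2 (1.72, adjusted p = 2.31e-14) also passed both, but they lie within HERPUD1 on the same strand, so their reads cannot be told apart from those of HERPUD1. NUP93, a nuclear pore subunit, was at -0.69 (adjusted p = 1.10e-15), CPNE2 at -0.44 (adjusted p = 2.90e-06) and BBS2, a subunit of the ciliary BBSome, at 0.41 (adjusted p = 6.56e-07).

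The tested genes whose pattern over the 4 libraries lay nearest to that of MT2A were GEN1, TAPBP, SHISA5, PSMB1 and CDIPT. Likeness was the Euclidean distance between log2 CPM values, each gene centred on its own mean, and it ran from 0.0136 for GEN1 to 0.0229 for CDIPT. Their log2 fold changes lay between -0.37 and -0.33. The measure compares only 4 values per gene, from 2 conditions.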

How the data were processed

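RNA of 4 SKBR3 libraries was sequenced with a stranded poly-A kit. Per the study's methods and processing notes, the authors trimmed reads with Trimmomatic 0.39, aligned them with STAR 2.5.2a to hg38 with Ensembl annotation and counted them with featureCounts. The authors deposited raw, unnormalized counts for each gene, with its exon coordinates and exonic length; strand use in counting and the handling of multiple alignments are not given in the sources used here. Of the 34009 rows whose symbol is in GENCODE 44, 99.7% overlapped its GRCh38 position. The control columns name the control; the remaining 2 columns carry a number and were taken as the VIRMA-overexpressing libraries, which the VIRMA counts check.

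Printed CPM and RPKM were computed from the counts with TMM-scaled totals; RPKM by unscaled totals and exonic lengths set the filter. The 12205 genes above an RPKM of 1 in 2 or more libraries entered edgeR 4.0.16 (R 4.3.3; quasi-likelihood test, TMM, group as the only term, Benjamini-Hochberg over all tested genes). The biological coefficient of variation was 3.93%. Total counts were 81446932 to 86375474 per library. Replicates differed beyond sampling noise (chi-square per degree of freedom 7.91 for eGFP and 6.19 for VIRMA). The labels number the replicates and the study calls them biological duplicates, without saying how they were separated, so p-values measure the spread between these libraries. Alternatives were DESeq2 1.42.0, limma-voom (limma 3.58.1), other scalings and filters, a test against 2-fold, a replicate block and each library left out. The edgeR scripts were tested on simulated data.

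The genes and lists were chosen with earlier results of these data known. Named genes were all 8 genes, VIRMA, and, in each list and among the neighbours, genes past both thresholds plus up to 3 others with the largest log2 fold change at an adjusted p below 0.05, and the 5 genes nearest in pattern to MT2A. SLC39A7, CCS, SLC31A1, PGF, CA9, SLC30A6, SLC30A2, NR3C1, PDK1, ANKRD37 and the other metallothioneins were named outside this rule, after their values were seen. So were single cell type markers other than HBB, COL1A1, KRT8, GRB7 and EPCAM. Marker lists were summed as CPM. Intervals of log2 fold changes include the spread between libraries; floors (3 counts) cover counting error only. Promoters came from the RefSeq table and coding sequences from GENCODE 44.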

Additional observations from a re-analysis of the deposited data

How the results depend on the processing

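MT2A and SLC30A1 stayed lower with an adjusted p below 0.05 with the other tools, scalings and filters, the replicate block and each library left out; tested against a 2-fold change, 0 of the 6 genes passed. MT1F lost its call with DESeq2 (-0.38, adjusted p = 0.0746), upper-quartile scaling (-0.30, adjusted p = 0.0973) and library totals (-0.29, adjusted p = 0.111), both scalings in edgeR. MT1X, not called, turned sign with the filterByExpr filter (-0.0251), no filter (-0.0156) and a minimum of 10 counts in every library (-0.0111). MTF1 passed with upper-quartile scaling (0.20, edgeR adjusted p = 0.0275) and library totals (0.21, edgeR adjusted p = 0.0200). Scalings moved the median of all genes by at most 0.0835, and with library totals all 6 genes moved up by a similar amount. MT1F, MT1G, MT2A and SLC30A1 went from -0.3719, -0.3606, -0.3475 and -0.3307 to -0.2888, -0.2773, -0.2641 and -0.2474. MT1X and MTF1 went from 0.01859 and 0.131 to 0.1023 and 0.2145. The cause of the sign changes under other filters was not tested. With 1 library left out, the log2 fold change ran from -0.49 to -0.26 for MT1F, from -0.48 to -0.25 for MT1G, from -0.12 to 0.15 for MT1X, from -0.41 to -0.29 for MT2A, from -0.47 to -0.21 for SLC30A1 and from 0.07 to 0.19 for MTF1; the lone library of a group was assumed to vary like the other group. MT1X turned sign without control replicate 2 (-0.05) or VIRMA-overexpressing replicate 1 (-0.12) and passed without VIRMA-overexpressing replicate 2 (0.15, edgeR adjusted p = 0.0353). The log2 ratio of the summed metallothioneins was -0.24 with library totals. With the adjusted p alone, 4 zinc response genes were lower, and of the 53 tested genes of the other lists 14 were higher and 26 lower, against 3 and 4 past both thresholds. The count lower past both thresholds was 7 with filterByExpr, 8 with no filter and 8 with a minimum of 10 counts, which admit more genes. Among the neighbours, 5 were higher with a minimum of 10 counts, against 3, and 1 was lower with filterByExpr, 1 with no filter and 4 by the adjusted p alone, against 0. The replicate numbers did not pair the libraries (correlation of same-numbered deviations 0.0346); with a replicate block MT1F was at -0.37 (edgeR adjusted p = 0.0310), MT1G -0.36, MT1X 0.02, MT2A -0.35, MTF1 0.13 and SLC30A1 -0.33, and no call changed. With 2 libraries per group, MT1M and MT1E lie below what this depth can compare.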
